A study of Rattus norvegicus with 36 samples.

Results

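The 47 genes described here are a fixed list of lysosomal genes in 5 roles: 10 proteases, 11 glycosidases and sulfatases, 8 lipid-handling enzymes and transfer proteins together with progranulin, 7 membrane proteins, and 11 subunits and accessory proteins of the vacuolar-type ATPase (V-ATPase), the lysosomal proton pump. They were found by gene symbol in the annotation of the array, from a list drawn up with earlier results of these data known. A probe was named for 43 of them, and 42 passed the detection filter and were tested, among 9078 genes tested in all. Ctsa, Ctsz, Sgsh and Atp6v0b had no named probe and are not analysed here. The probe of Lipa, the acid lipase gene, was detected on 4 of 36 arrays, with intensities from 41.3 to 71.2 where the brightest array had a median of 66.7 over all probes, and was not tested. Manba, the beta-mannosidase gene, was detected on 27 arrays and the other tested members on all 36. Its intensities ran from 138 to 232, above the median of the brightest array. The Manba probe is among those left out when the background was inferred, because of their detection p-values (see the processing below).

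Lysosomes are the acidic compartments in which cells break down what they take up. Soluble proteases, glycosidases, sulfatases and lipid-handling proteins do the digestion, heavily glycosylated membrane proteins line the wall and move products out, and the V-ATPase, a machine of many subunits, keeps the inside acidic. In the lung the alveolar macrophage, which swallows inhaled particles and spent surfactant, is rich in lysosomes, and in the type II pneumocyte, which makes surfactant, the lamellar body is an organelle related to the lysosome. Crystalline silica is a mineral dust that is taken into macrophage lysosomes and can injure their membrane.

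The study exposed male CDF Fisher 344 rats, 3 months old per the labels, to crystalline silica at 15 mg/m3 by inhalation, 6 h a day and 5 days a week. After 3, 6 or 12 weeks the lungs of 6 silica rats and of 6 rats that had breathed air were taken, each week with an air group of its own, and total RNA of each lung was hybridised to 1 Illumina rat BeadChip array. The comparison asks what inhaled silica does to gene expression in the lung as the exposure lengthens. Levels below are log2 intensities after background correction and quantile normalisation of all 36 arrays, a call means an adjusted p under 0.05 in limma (Benjamini-Hochberg, across the 9078 genes), changes are silica minus air, and every group has n = 6 rats. The source names in the labels give each of the 36 rats an animal number of its own, apart from the replicate numbers 1 to 6 used here within each group, so that p-values measure the spread between rats. Because the lung was measured whole, a change in the number of cells of a type and a change in RNA per cell cannot be told apart.

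An array detected from 48.7% to 53.1% of its probes. The markers of lung were present, since 10 of 13 markers of type II pneumocytes and 8 of 8 of type I pneumocytes passed the detection filter. The other type II markers, Abca3, Etv5 and Fasn, had no named probe. The arrays of the 6-week rats lay apart on the first principal component (54.5% of the variance), with scores of 22.7 to 29.8, and the labels name no array batch, so week and array set cannot be told apart and levels are not compared across weeks. Air replicate 5 at 3 weeks, at 8.72, and silica replicate 3 at 12 weeks, at 15.1, lay between the sets. The counts of all members called higher and lower at these weeks are given with and without the arrays between the sets. Silica replicate 4 at 3 weeks lay on the far side, at -25.0, where the other silica arrays of that week lay from -18.5 to -14.1. Counts of members without overlap, over all 3 weeks, by role and by list rest on all arrays. Heart-muscle markers, which a piece of lung can carry along, differed between rats within every group. In the 3-week air rats the mean log2 difference of 5 genes ran from -2.80 to 1.97. Their median log2 change, silica minus air, was 0.069, 0.59 and -0.94 at 3, 6 and 12 weeks. In limma 0 of the 5 were called at any week, with 0 also at an unadjusted p under 0.05. With so wide a spread between rats, this does not show that heart tissue was balanced between silica and air rats.

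Silica lungs held more transcript of a large share of the lysosomal genes at each of the 3 weeks. A single gene, Ctsl, was called lower at every week, a count near the background of 2.3% of all tested genes. Its calls at 3 and 6 weeks sat close to the threshold. At 3 weeks 19 of the 42 tested members (45.2%) were called higher, against a background of 7.51% of all tested genes, and 1 was called lower, against 6.08%. At 6 weeks 24 (57.1%) were higher and 1 lower, against 8.8% and 8.5% of all tested genes. At 12 weeks 24 (57.1%) were higher and 2 lower, against 11.7% and 14.2%. The same shares of all tested genes are the background, under quantile normalisation, for the counts by role and by list below. The median log2 change of the members was 0.18, 0.20 and 0.23 at 3, 6 and 12 weeks, while that of all tested genes was -0.0012, -0.016 and -0.016. The 12-week count depended on the scaling between arrays. With median scaling in place of quantile normalisation it was 14 higher and 1 lower, with a median of 0.20. The background fell as well. With median scaling 574, 487 and 604 of the 9078 tested genes were called higher at 3, 6 and 12 weeks, and 92, 205 and 1256 lower. Under quantile normalisation 1061 were higher at 12 weeks. The counts with median scaling by role and by list below stand against this median-scaling background. Over all tested genes the scaling also moved the split of calls, since 55.3%, 50.9% and 45.1% of the called genes were higher at 3, 6 and 12 weeks, and 86.2%, 70.4% and 32.5% with median scaling. The calls lost under median scaling were those of Ctsl, Tpp1 and Arsb at 3 weeks, of Ctsl, Tpp1, Glb1, Gusb, Fuca1, Npc1, Atp6v1c1 and Atp6v1e1 at 6 weeks, and of Ctsc, Hexa, Glb1, Gusb, Arsb, Grn, Npc1, Npc2, Ppt1, Laptm4a and Atp6ap2 at 12 weeks, and Cd63 was gained at 3 and 6 weeks.

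The 6 silica rats and the 6 air rats of a week did not overlap in 14, 19 and 14 members at 3, 6 and 12 weeks, each time with silica above air, or 33.3%, 45.2% and 33.3% of the members against 3.89%, 5.17% and 5.62% of all tested genes. Called higher at all 3 weeks were 17 members (40.5%, background 4.26%), called lower at all 3 weeks was 1, Ctsl (background 2.3%), and 6 members kept the groups apart at every week (background 1.5%), namely Ctsh, Ctss, Gm2a, Laptm5, Lgmn and Scarb2. A further 6 members were higher at 2 weeks and 4 at 1 week, and 13 were called at no week. Without air replicate 5 at 3 weeks the 3-week counts were 17 higher and 0 lower with a median of 0.13. Without silica replicate 3 at 12 weeks the 12-week counts were 26 higher and 2 lower with a median of 0.24.

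**Figure D1:**
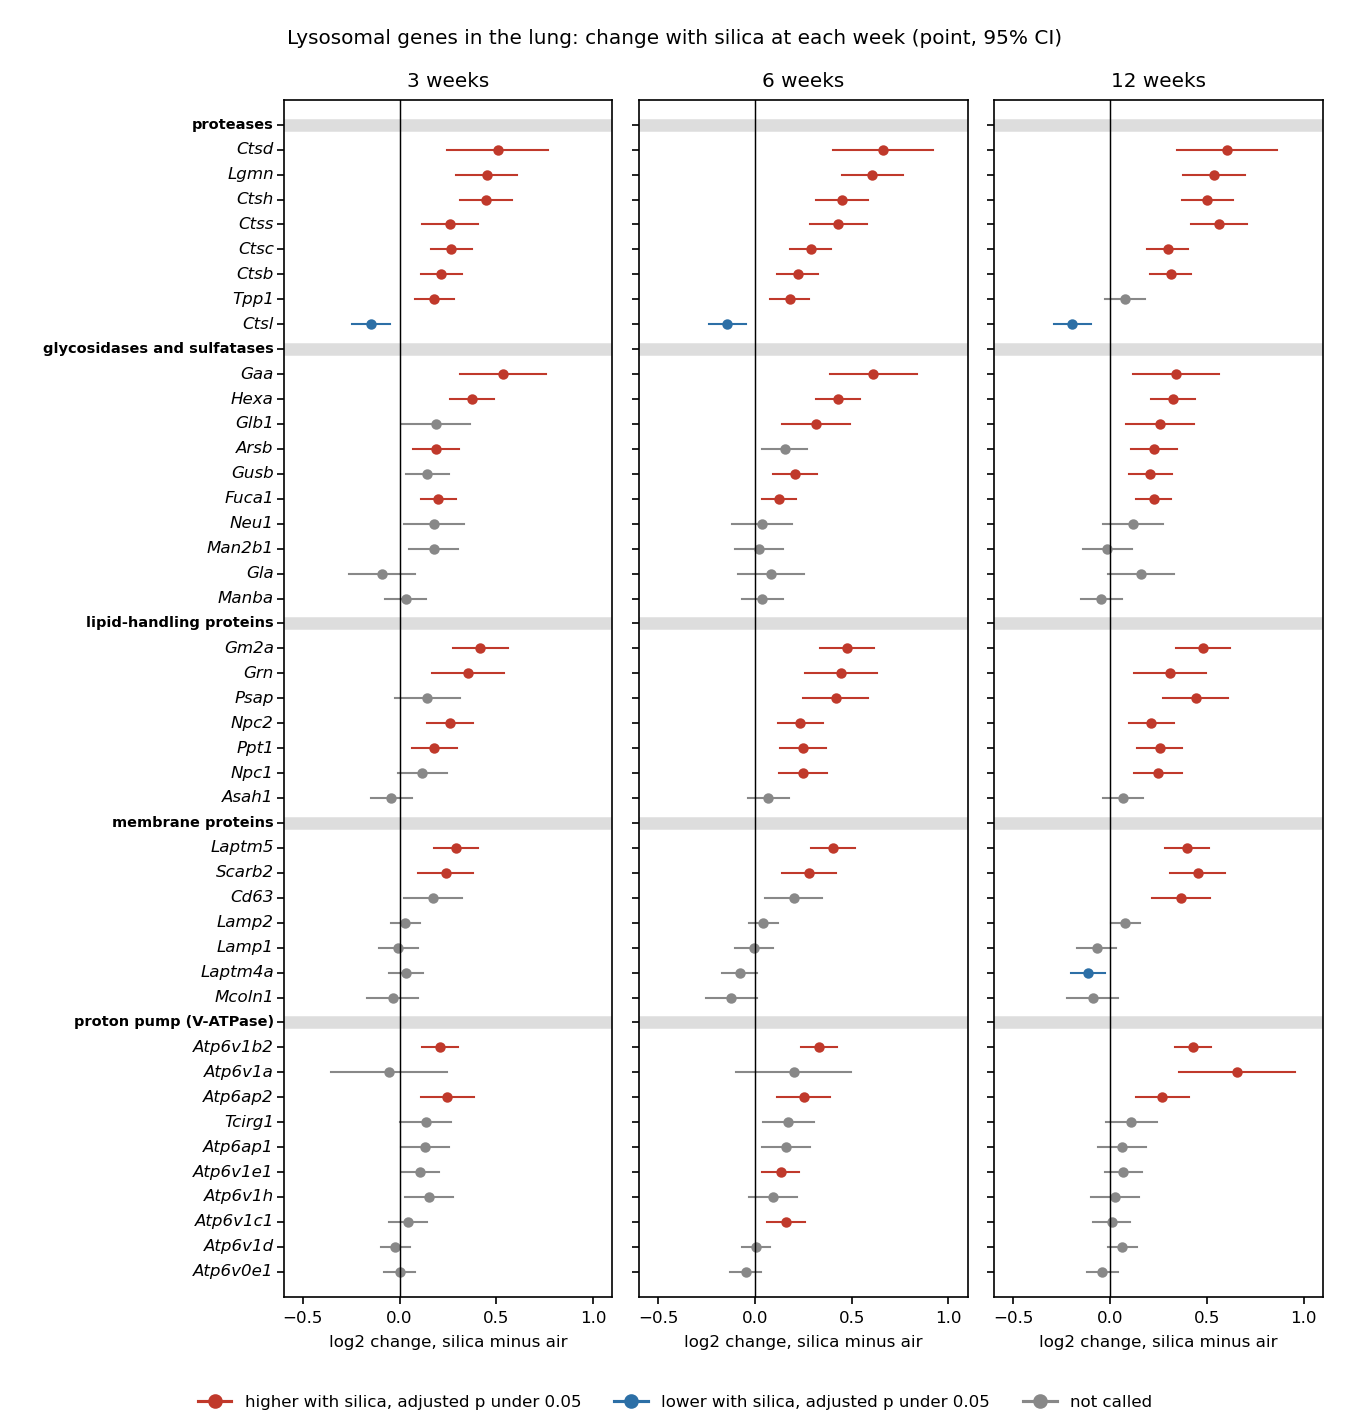
Log2 change, silica minus air, of the 42 tested lysosomal genes at 3, 6 and 12 weeks, grouped by role and ordered by the mean over the 3 weeks; points are the model's estimates, lines their 95% confidence intervals, and colours mark adjusted p under 0.05 in either direction. The 8 proteases lie to the right of 0 except Ctsl, while Lamp1, Lamp2, Mcoln1 and most proton pump subunits lie near 0.

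Averaged over the 42 genes, each rat's difference from the air rats of its week ran from 0.13 to 0.20 in silica rats, against -0.061 to 0.077 in air rats, at 3 weeks. The same mean ran from 0.14 to 0.30 in silica rats, against -0.056 to 0.069 in air rats, at 6 weeks. At 12 weeks it ran from 0.16 to 0.29 in silica rats, against -0.093 to 0.054 in air rats. Every silica rat thus lay above every air rat of its week on this log2 mean, which is a description of the genes listed and carries no test. By role, the proteases kept the groups apart at all 3 weeks, the glycosidases and sulfatases at 3 and 6 weeks, the lipid-handling proteins at 6 and 12, the membrane proteins at 3 and 6, and the proton pump at 6 and 12.

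**Figure D2:**
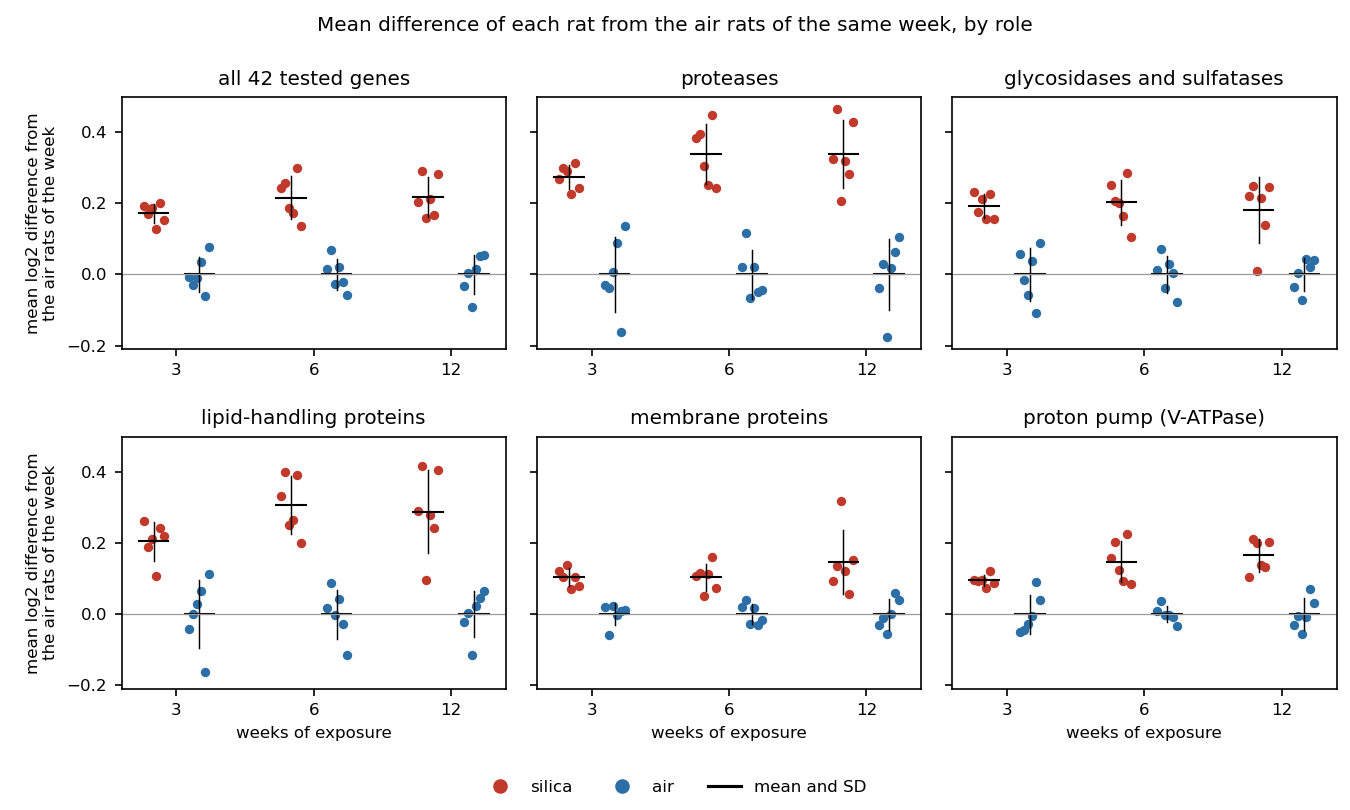
Mean over the tested genes of a role of each rat's log2 level minus that gene's mean in the air rats of the same week; each point is a rat (silica red, air blue), bars are the mean and the SD. The proteases average 0.27, 0.34 and 0.34 in silica rats at 3, 6 and 12 weeks and the membrane proteins 0.10, 0.10 and 0.15, while the air rats average 0 by construction; the low point among the 12-week silica rats for glycosidases and sulfatases, at 0.0097, is replicate 3.

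Lysosomal genes are a textbook group for a shared promoter word. Transcription factors of the MiT/TFE family, TFEB among them, bind an E-box within the so-called CLEAR element found near the start of many of these genes. The rat RefSeq promoter table (build GRCr8), which gives 250 bases before and 50 bases after each gene start, held 38 of the 47 members. The 6-letter E-box CACGTG, which reads the same on both strands, was found in 8 of these 38 windows (21.1%), against 6.42% of all 33469 windows in the table and 8.87% of the 7873 that belong to tested genes. The longer word TCACGTG, read on either strand and overlapping the first by its last 6 letters, was found in 18.4% of the members' windows against 3.2% of all and 5.09% of those of tested genes.

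Of the tested members with the E-box, Ctsd, Gaa, Glb1 and Cd63 were called higher at 1 week or more, and Lamp1, Mcoln1 and Atp6v0e1 were called at no week. It stood in 2 of the 13 windows of members called higher at all 3 weeks (15.4%) and in 5 of the 20 of the other tested members. Lgmn, Ctsh, Gm2a, Ctss, Grn, Laptm5 and Scarb2, which were called higher at every week, did not hold these letters in this window. A match is a stretch of letters and not a measured binding site. The 3 windows with the E-box whose genes changed most are printed beside that of Lamp1, the member with the most copies, which was added after its values had been seen. All are written 5′ to 3′ on the strand of the gene, with the E-box and, where it completes the longer word, its flanking base in capitals.
Ctsd, chr1:206968772-206969071, minus strand: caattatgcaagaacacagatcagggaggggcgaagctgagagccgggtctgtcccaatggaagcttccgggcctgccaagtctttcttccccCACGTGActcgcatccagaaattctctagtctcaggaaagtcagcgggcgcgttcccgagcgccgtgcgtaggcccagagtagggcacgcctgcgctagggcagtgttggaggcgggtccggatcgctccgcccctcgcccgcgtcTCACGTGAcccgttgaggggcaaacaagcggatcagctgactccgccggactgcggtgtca
Gaa, chr10:105028105-105028404, plus strand: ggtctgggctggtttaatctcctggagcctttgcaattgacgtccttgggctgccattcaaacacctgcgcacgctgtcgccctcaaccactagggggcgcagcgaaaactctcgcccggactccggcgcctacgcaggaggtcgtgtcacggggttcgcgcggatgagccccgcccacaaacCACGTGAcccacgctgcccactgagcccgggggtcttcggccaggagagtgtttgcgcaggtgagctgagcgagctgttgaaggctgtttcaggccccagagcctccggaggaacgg
Glb1, chr8:122963468-122963767, plus strand: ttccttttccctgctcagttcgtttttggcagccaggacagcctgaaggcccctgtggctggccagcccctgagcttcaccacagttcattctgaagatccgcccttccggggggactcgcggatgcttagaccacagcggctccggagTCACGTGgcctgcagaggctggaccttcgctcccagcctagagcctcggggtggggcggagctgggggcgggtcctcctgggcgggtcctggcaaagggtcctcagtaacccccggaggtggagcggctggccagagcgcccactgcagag
Lamp1, chr16:83075014-83075313, minus strand: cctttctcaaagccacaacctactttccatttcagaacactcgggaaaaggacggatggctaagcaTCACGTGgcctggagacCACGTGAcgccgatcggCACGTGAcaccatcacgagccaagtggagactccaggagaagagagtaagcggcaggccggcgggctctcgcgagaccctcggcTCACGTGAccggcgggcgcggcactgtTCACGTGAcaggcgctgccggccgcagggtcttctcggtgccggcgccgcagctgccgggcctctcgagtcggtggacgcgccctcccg

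In Ctsd the E-box began 157 and 10 bases before the gene start, in Gaa 67 and in Glb1 100 bases before it. The Lamp1 window held 5 copies, which began 183, 167, 150, 65 and 38 bases before the start. Lamp1, the gene with the most copies in its window, had log2 changes of -0.007 ± 0.049, -0.0051 ± 0.049 and -0.069 ± 0.049 (SE) at 3, 6 and 12 weeks, and was not called.

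The proteases had the highest medians of the 5 roles. Of 8 tested, 7 were higher and 1 was lower at 3 and at 6 weeks, and 6 were higher and 1 lower at 12 weeks, with medians of 0.26, 0.36 and 0.41 on the log2 scale. Cathepsin D (Ctsd), the main aspartic protease of the lysosome, legumain (Lgmn), which cuts after asparagine and matures other cathepsins, and cathepsin H (Ctsh), an aminopeptidase that also takes part in processing surfactant protein B, led them. Cathepsin L (Ctsl), a cysteine protease, was the exception.

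Ctsd at 3 weeks had lowest, median and highest log2 levels of 10.31, 10.56 and 10.70 in silica rats, against 9.70, 10.06 and 10.23 in air rats. Ctsd at 6 weeks had 9.98, 10.40 and 10.68 in silica rats, against 9.48, 9.70 and 9.9953 in air rats. Ctsd at 12 weeks had 10.68, 10.89 and 11.28 in silica rats, against 9.84, 10.47 and 10.70 in air rats. All silica rats lay above all air rats at 3 weeks, and at 6 and 12 weeks the lowest silica rat fell just under the highest air rat. The change was 0.51 ± 0.13, 0.66 ± 0.13 and 0.60 ± 0.13 on the log2 scale (± SE) at the 3 weeks, or 1.42-fold, 1.58-fold and 1.52-fold, with adjusted p of 0.00625, 0.000253 and 0.000537. Lgmn at 3 weeks lay at 10.49, 10.62 and 10.71 in silica rats, against 9.83, 10.19 and 10.34 in air rats (same order). Lgmn at 6 weeks lay at 10.33, 10.48 and 10.61 in silica rats, against 9.76, 9.85 and 10.06 in air rats. Lgmn at 12 weeks lay at 10.70, 10.88 and 11.04 in silica rats, against 10.01, 10.41 and 10.49 in air rats. The groups did not overlap at any week, and the log2 changes were 0.45 ± 0.078, 0.61 ± 0.078 and 0.54 ± 0.078, with adjusted p of 0.000133, 4.77e-07 and 3.58e-06.

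Ctsh at 3 weeks lay at 11.55, 11.71 and 11.76 in silica rats, against 10.93, 11.28 and 11.52 in air rats. Ctsh at 6 weeks lay at 11.59, 11.63 and 11.68 in silica rats, against 11.11, 11.16 and 11.27 in air rats. Ctsh at 12 weeks lay at 11.56, 11.82 and 11.98 in silica rats, against 11.19, 11.31 and 11.40 in air rats. The groups stayed apart at every week, closest at 3 weeks, where the highest air rat came within a small step of the lowest silica rat. Its changes were 0.45 ± 0.065, 0.45 ± 0.065 and 0.50 ± 0.065 (adjusted p 1.12e-05, 3.87e-06 and 5.02e-07). Cathepsin S (Ctss), which trims the invariant chain of MHC class II in antigen-presenting cells, changed by 0.26 ± 0.072, 0.43 ± 0.072 and 0.56 ± 0.072, also without overlap at any week. Cathepsin C (Ctsc), which activates the serine proteases of granulocytes, and cathepsin B (Ctsb), another cysteine protease, were called higher at all 3 weeks with changes between 0.22 and 0.31. Tpp1, a tripeptidyl peptidase, was higher at 3 and 6 weeks, by 0.18 ± 0.05 and 0.18 ± 0.05, and had 0.077 ± 0.05 at 12 weeks (adjusted p 0.278). Without air replicate 5 its 3-week change was 0.13 (adjusted p 0.0612).

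Ctsl at 3 weeks lay at 12.59, 12.74 and 12.84 in silica rats, against 12.83, 12.88 and 12.94 in air rats. Ctsl at 6 weeks lay at 12.65, 12.70 and 12.86 in silica rats, against 12.76, 12.87 and 12.95 in air rats. Ctsl at 12 weeks lay at 12.44, 12.52 and 12.69 in silica rats, against 12.62, 12.73 and 12.82 in air rats. Silica rats were lower as a group at each week, with overlap at each. The log2 changes were -0.15 ± 0.048, -0.14 ± 0.048 and -0.20 ± 0.048, with adjusted p of 0.0341, 0.0337 and 0.00231. The calls at 3 and 6 weeks sat close to the threshold: each was lost under median scaling (log2 change -0.023 at 3 weeks and -0.083 at 6 weeks), with the arrays of the week alone, and when single arrays were left out. At 3 weeks that held for air replicate 4, 5 or 6 and silica replicate 1, 4 or 6 (adjusted p from 0.0557 to 0.107), and at 6 weeks for air replicate 2, 3 or 6 and silica replicate 1, 2, 4 or 5 (0.0561 to 0.0887).

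**Figure D3:**
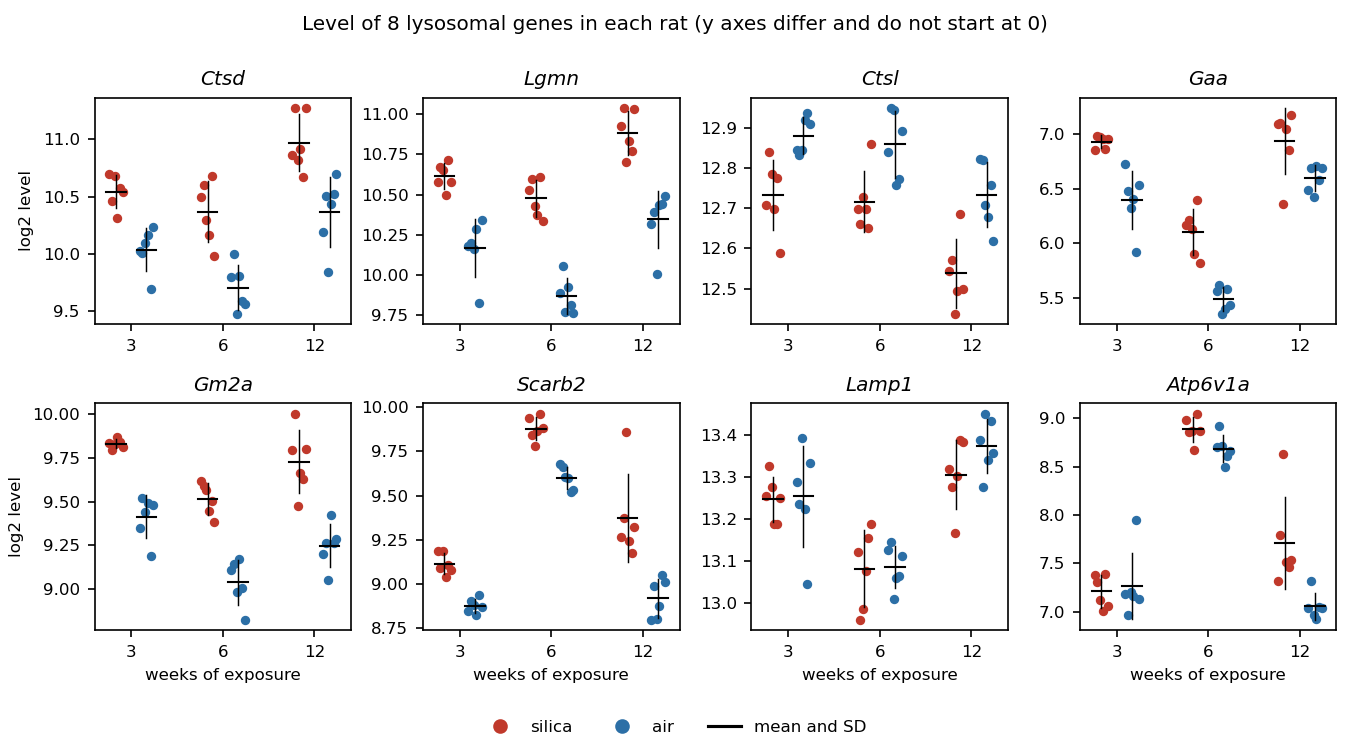
Log2 level of 8 lysosomal genes in each rat at 3, 6 and 12 weeks (silica red and left, air blue and right), with mean and SD; y axes differ and do not start at 0. Lgmn, Gm2a and Scarb2 show no overlap between silica and air rats at any week, Lamp1 overlaps at all, Ctsl lies lower in silica rats, and Atp6v1a separates at 12 weeks, where silica replicate 3 stands at 8.63.

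Among the 10 tested glycosidases and sulfatases 4, 5 and 6 were called higher at 3, 6 and 12 weeks and 0 lower, with medians of 0.18, 0.14 and 0.22. With median scaling 3, 2 and 2 of them were called. The largest mean changes over the 3 weeks were those of Gaa, the acid alpha-glucosidase that degrades glycogen in the lysosome, Hexa, the alpha subunit of beta-hexosaminidase, and Glb1, the acid beta-galactosidase.

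Gaa at 3 weeks lay at 6.85, 6.96 and 6.98 in silica rats, against 5.92, 6.44 and 6.72 in air rats. Gaa at 6 weeks lay at 5.82, 6.15 and 6.39 in silica rats, against 5.35, 5.50 and 5.61 in air rats. Gaa at 12 weeks lay at 6.36, 7.07 and 7.17 in silica rats, against 6.43, 6.63 and 6.71 in air rats. The groups did not overlap at 3 and 6 weeks, and at 12 weeks silica replicate 3 fell below all air rats while the others lay above them. The changes were 0.53 ± 0.11, 0.61 ± 0.11 and 0.34 ± 0.11 (adjusted p 0.00101, 0.000106 and 0.0211). Without silica replicate 3 the 12-week change was 0.46 (adjusted p 0.000583), and without air replicate 3 or silica replicate 2 or 6 at 12 weeks the call was lost (0.0559 to 0.0603). The size of the Gaa change depended on the background correction. Inferring the background from every probe gave 0.13, 0.083 and 0.10 (adjusted p 0.000611, 0.0234 and 0.00338), and with the authors' log2 values 0.24, 0.21 and 0.18 (0.000449, 0.00105 and 0.00378). The Gaa probe was dim, and the offset of 16 added before log2 makes the changes of dim probes smaller than the change in RNA.

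Hexa at 3 weeks lay at 10.33, 10.39 and 10.45 in silica rats, against 9.83, 10.06 and 10.12 in air rats. Hexa at 6 weeks lay at 10.05, 10.14 and 10.33 in silica rats, against 9.63, 9.76 and 9.83 in air rats. Hexa at 12 weeks lay at 10.17, 10.31 and 10.43 in silica rats, against 9.82, 9.99 and 10.17 in air rats. The groups did not overlap at 3 and 6 weeks and touched at 12, with changes of 0.37 ± 0.056, 0.43 ± 0.056 and 0.32 ± 0.056 (adjusted p 1.87e-05, 6.46e-07 and 4.88e-05). Glb1 at 3 weeks lay at 6.9973, 7.41 and 7.59 in silica rats, against 6.86, 7.19 and 7.42 in air rats. Glb1 at 6 weeks lay at 7.07, 7.22 and 7.32 in silica rats, against 6.67, 6.92 and 7.02 in air rats. Glb1 at 12 weeks lay at 7.14, 7.45 and 7.65 in silica rats, against 7.08, 7.20 and 7.28 in air rats. Silica and air rats overlapped at 3 and 12 weeks and not at 6 weeks. The changes were 0.19 ± 0.086, 0.32 ± 0.086 and 0.26 ± 0.086, of which the 3-week one was not called (adjusted p 0.144, 0.0084 and 0.0259). Leaving out silica replicate 4 at 3 weeks brought that week to adjusted p 0.0324. The 12-week call was lost without air replicate 3 or silica replicate 1, 2 or 6 (0.0502 to 0.0817). With the background from all probes the Glb1 changes called were 0.11 at 6 weeks and 0.12 at 12 weeks (adjusted p 0.028 and 0.0143), and with the authors' log2 values 0.16 and 0.15 (0.0223 and 0.0187).

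Fuca1, the alpha-L-fucosidase gene, was called higher at all 3 weeks, by 0.20 ± 0.044, 0.13 ± 0.044 and 0.23 ± 0.044. Arsb, a sulfatase of dermatan and chondroitin sulfate, was higher at 3 and 12 weeks (0.19 ± 0.058 and 0.23 ± 0.058), and Gusb, the beta-glucuronidase gene, at 6 and 12 weeks (0.21 ± 0.056 and 0.21 ± 0.056). The Fuca1 call at 6 weeks was lost without air replicate 3, 4, 5 or 6, or without silica replicate 1, 2, 3 or 5 (adjusted p 0.0585 to 0.139), and the Arsb call at 3 weeks without air replicate 2, 3 or 5, or without silica replicate 1 (0.0605 to 0.0929). Arsb was called at 6 weeks without air replicate 4 or silica replicate 6 (0.0239 to 0.0442), and Gusb at 3 weeks without air replicate 6 (0.0378). The sialidase gene Neu1, the mannosidase genes Man2b1 and Manba and the alpha-galactosidase gene Gla were not called, with changes between -0.091 (Gla at 3 weeks) and 0.18 (Neu1 at 3 weeks). At 3 weeks Man2b1 was called without silica replicate 1 or air replicate 1 or 4 (adjusted p 0.0271 to 0.0405), and Neu1 without silica replicate 4 (0.0477).

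The lipid-handling proteins had 4 of 7 tested members higher at 3 weeks and 6 of 7 at 6 and at 12 weeks, with none lower and medians of 0.18, 0.25 and 0.26, and with median scaling 2 of 7 were called at 12 weeks. Gm2a, the activator that lifts gangliosides out of membranes for beta-hexosaminidase, progranulin (Grn), a secreted glycoprotein that is cut in the lysosome, and prosaposin (Psap), the precursor of the saposin activators, led them.

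Gm2a at 3 weeks lay at 9.79, 9.83 and 9.87 in silica rats, against 9.19, 9.46 and 9.52 in air rats. Gm2a at 6 weeks lay at 9.38, 9.53 and 9.62 in silica rats, against 8.83, 9.06 and 9.17 in air rats. Gm2a at 12 weeks lay at 9.47, 9.73 and 10.002 in silica rats, against 9.05, 9.26 and 9.43 in air rats. Silica rats lay above air rats without overlap at every week. The changes were 0.42 ± 0.069, 0.48 ± 0.069 and 0.48 ± 0.069, or 1.34-fold, 1.39-fold and 1.39-fold (adjusted p 7.79e-05, 4.35e-06 and 3.23e-06). Gm2a and Hexa, whose products act together on ganglioside GM2, were thus both called at all 3 weeks.

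Grn at 3 weeks lay at 11.16, 11.40 and 11.56 in silica rats, against 10.54, 11.11 and 11.22 in air rats. Grn at 6 weeks lay at 10.61, 10.78 and 10.85 in silica rats, against 10.22, 10.30 and 10.45 in air rats. Grn at 12 weeks lay at 11.01, 11.55 and 11.72 in silica rats, against 11.12, 11.16 and 11.30 in air rats. The groups stayed apart at 6 weeks only, and silica replicate 3 at 12 weeks was the low one in its group. The changes were 0.36 ± 0.092, 0.45 ± 0.092 and 0.31 ± 0.092 (adjusted p 0.00741, 0.000557 and 0.0115), with 0.26 at 3 weeks without air replicate 5 and 0.41 at 12 weeks without silica replicate 3. Psap at 3 weeks lay at 9.45, 10.06 and 10.09 in silica rats, against 9.78, 9.84 and 9.85 in air rats. Psap at 6 weeks lay at 10.09, 10.27 and 10.46 in silica rats, against 9.66, 9.85 and 9.98 in air rats. Psap at 12 weeks lay at 10.01, 10.20 and 10.26 in silica rats, against 9.52, 9.69 and 9.94 in air rats. Silica lay above air without overlap at 6 and 12 weeks, and at 3 weeks silica replicate 4 lay below all air rats. The changes were 0.14 ± 0.083, 0.42 ± 0.083 and 0.44 ± 0.083 (adjusted p 0.263, 0.000363 and 0.000121), and without that replicate the 3-week change was 0.25 (adjusted p 0.0113).

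Npc2 and Npc1 are the soluble and the membrane protein that pass cholesterol out of the lysosome. Npc2 was higher at all 3 weeks (0.26 ± 0.058, 0.24 ± 0.058 and 0.21 ± 0.058), and Npc1 at 6 and 12 weeks (0.25 ± 0.062 and 0.25 ± 0.062) with 0.12 ± 0.062 at 3 weeks (adjusted p 0.209). Npc1 at 6 weeks had 0.15 both with the background from every probe and with the authors' log2 values. Ppt1, which removes palmitate from proteins, was higher at all 3 weeks, by 0.18 to 0.26, and its 3-week call was lost without air replicate 1, 2 or 3, or without silica replicate 1, 4 or 5 (adjusted p 0.0526 to 0.106). Acid ceramidase (Asah1) was not called at any week, with changes of -0.043 ± 0.052, 0.069 ± 0.052 and 0.066 ± 0.052.

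Of the 7 membrane proteins, Laptm5 and Scarb2 were higher at all 3 weeks, Cd63 was higher at 12 weeks and Laptm4a was lower at 12 weeks. Lamp1, Lamp2 and Mcoln1 were called at no week. The background at 3, 6 and 12 weeks was 7.51%, 8.8% and 11.7% higher and 6.08%, 8.5% and 14.2% lower. The medians of the 7 were 0.033, 0.043 and 0.078. With median scaling these medians were 0.14, 0.10 and 0.033, with 3 of 7 higher at each week and none lower. Laptm5 is a lysosomal membrane protein of blood-derived cells, Scarb2 (LIMP-2) is the receptor that carries beta-glucocerebrosidase to the lysosome, and Cd63 is a tetraspanin of late endosomes and lysosomes.

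Laptm5 at 3 weeks lay at 11.68, 11.78 and 11.93 in silica rats, against 11.41, 11.49 and 11.64 in air rats. Laptm5 at 6 weeks lay at 11.81, 11.86 and 12.10 in silica rats, against 11.43, 11.49 and 11.61 in air rats. Laptm5 at 12 weeks lay at 11.84, 12.07 and 12.10 in silica rats, against 11.45, 11.63 and 11.75 in air rats. Every silica rat was above every air rat of its week. The changes were 0.29 ± 0.056, 0.40 ± 0.056 and 0.40 ± 0.056 (adjusted p 0.000485, 1.89e-06 and 2.2e-06). Scarb2 at 3 weeks lay at 9.04, 9.10 and 9.19 in silica rats, against 8.82, 8.87 and 8.94 in air rats. Scarb2 at 6 weeks lay at 9.78, 9.87 and 9.96 in silica rats, against 9.52, 9.60 and 9.68 in air rats. Scarb2 at 12 weeks lay at 9.17, 9.29 and 9.86 in silica rats, against 8.80, 8.93 and 9.05 in air rats. Again no rat crossed between the groups, and silica replicate 3 was the high value at 12 weeks. The changes were 0.24 ± 0.069, 0.28 ± 0.069 and 0.45 ± 0.069 (adjusted p 0.0181, 0.00384 and 7.3e-06), with 0.35 at 12 weeks without that replicate.

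Cd63 at 3 weeks lay at 9.76, 9.85 and 9.87 in silica rats, against 9.55, 9.69 and 9.71 in air rats. Cd63 at 6 weeks lay at 10.32, 10.41 and 10.63 in silica rats, against 10.09, 10.27 and 10.34 in air rats. Cd63 at 12 weeks lay at 9.96, 10.15 and 10.72 in silica rats, against 9.79, 9.84 and 9.91 in air rats. The groups stayed apart at 3 and 12 weeks and met at 6 weeks by a narrow margin. Only the 12-week change passed the test (0.17 ± 0.073, 0.20 ± 0.073 and 0.37 ± 0.073, adjusted p 0.113, 0.0561 and 0.000275), with 0.27 without silica replicate 3. At 6 weeks Cd63 was called without silica replicate 6 or air replicate 1 or 4 (adjusted p 0.0386 to 0.0477).

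Laptm4a, a widely expressed relative of Laptm5, at 3 weeks lay at 13.47, 13.51 and 13.59 in silica rats, against 13.37, 13.46 and 13.64 in air rats. Laptm4a at 6 weeks lay at 13.22, 13.26 and 13.30 in silica rats, against 13.29, 13.31 and 13.43 in air rats. Laptm4a at 12 weeks lay at 13.29, 13.46 and 13.60 in silica rats, against 13.51, 13.57 and 13.65 in air rats. The groups overlapped at all 3 weeks. The changes were 0.033 ± 0.044, -0.079 ± 0.044 and -0.12 ± 0.044, of which the 12-week one was just called (adjusted p 0.665, 0.249 and 0.0485), and that call was lost under median scaling and without air replicate 3, 4, 5 or 6, or without silica replicate 1, 2, 3 or 6 (0.0573 to 0.164). Lamp1 and Lamp2, the most abundant glycoproteins of the lysosomal wall, had changes from -0.069 (Lamp1 at 12 weeks) to 0.078 (Lamp2 at 12 weeks). Their 95% intervals at 12 weeks, -0.17 to 0.031 for Lamp1 and 0.0027 to 0.15 for Lamp2, leave out a log2 change as large as that of Laptm5 or Scarb2 at that week. Mcoln1, the calcium channel mucolipin 1, had -0.035 ± 0.065, -0.12 ± 0.065 and -0.09 ± 0.065 and was called lower at 12 weeks without silica replicate 3 (-0.17, adjusted p 0.00812).

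Of the 10 tested V-ATPase members 2, 4 and 3 were called higher at 3, 6 and 12 weeks and none lower. All tested genes had 7.51%, 8.8% and 11.7% higher and 6.08%, 8.5% and 14.2% lower. The medians of the 10 were 0.12, 0.16 and 0.065. With median scaling 2 were called at each week, and the 12-week median was -0.0041. The pump has a cytosolic V1 sector that splits ATP and a membrane V0 sector that carries the protons. Atp6v1b2 encodes the ubiquitous form of the ATP-binding B subunit, Atp6v1a the catalytic A subunit, and Atp6ap2 an accessory protein also known as the prorenin receptor.

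Atp6v1b2 at 3 weeks lay at 11.49, 11.65 and 11.70 in silica rats, against 11.38, 11.39 and 11.50 in air rats. Atp6v1b2 at 6 weeks lay at 11.87, 11.99 and 12.18 in silica rats, against 11.60, 11.67 and 11.74 in air rats. Atp6v1b2 at 12 weeks lay at 11.76, 11.87 and 11.93 in silica rats, against 11.35, 11.42 and 11.56 in air rats. The groups touched at 3 weeks and stood apart at 6 and 12 weeks. The changes were 0.21 ± 0.046, 0.33 ± 0.046 and 0.43 ± 0.046 (adjusted p 0.00187, 1.97e-06 and 1.55e-08). Atp6ap2 at 3 weeks lay at 11.82, 11.85 and 11.94 in silica rats, against 11.32, 11.61 and 11.85 in air rats. Atp6ap2 at 6 weeks lay at 12.12, 12.20 and 12.24 in silica rats, against 11.84, 11.95 and 11.99 in air rats. Atp6ap2 at 12 weeks lay at 11.75, 11.85 and 12.12 in silica rats, against 11.47, 11.61 and 11.83 in air rats. The Atp6ap2 levels overlapped at 3 and 12 weeks and not at 6 weeks, with changes of 0.25 ± 0.067, 0.25 ± 0.067 and 0.27 ± 0.067 (adjusted p 0.012, 0.00728 and 0.00284).

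Atp6v1a at 3 weeks lay at 7.01, 7.21 and 7.39 in silica rats, against 6.96, 7.17 and 7.94 in air rats. Atp6v1a at 6 weeks lay at 8.67, 8.87 and 9.05 in silica rats, against 8.50, 8.68 and 8.91 in air rats. Atp6v1a at 12 weeks lay at 7.32, 7.53 and 8.63 in silica rats, against 6.92, 7.04 and 7.31 in air rats. Silica and air rats overlapped at 3 and 6 weeks, and at 12 weeks all silica rats lay above all air rats. The changes were -0.054 ± 0.15, 0.20 ± 0.15 and 0.66 ± 0.15 (adjusted p 0.851, 0.413 and 0.001). The high values, 7.94 in air replicate 5 at 3 weeks and 8.63 in silica replicate 3 at 12 weeks, came from the arrays that lay towards the 6-week set, where this probe read between 8.50 and 9.05. Without them the changes were 0.082 at 3 weeks (adjusted p 0.776) and 0.47 at 12 weeks (adjusted p 0.00237). For Atp6v1a at 12 weeks the background from every probe gave 0.35 and the authors' log2 values 0.40 (adjusted p 0.0145 and 0.00268).

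Of the other subunits Atp6v1c1 and Atp6v1e1 were called higher at 6 weeks, by 0.16 ± 0.048 and 0.13 ± 0.047, the second of which was lost without air replicate 1, 3, 5 or 6, or without silica replicate 1, 2, 3 or 5 (adjusted p 0.0576 to 0.15). Tcirg1, the a3 subunit known from osteoclasts and lysosomes, Atp6v1d, Atp6v1h, Atp6v0e1 and the accessory Atp6ap1 were not called at any week, with changes between -0.046 (Atp6v0e1 at 6 weeks) and 0.17 (Tcirg1 at 6 weeks). Tcirg1 was called at 6 weeks without silica replicate 1 or 6 and at 12 weeks without silica replicate 3 (adjusted p 0.0291 to 0.0366). Leaving out the same 12-week array brought a call for Atp6v1e1 at 12 weeks (0.021), and Atp6ap1 was called at 6 weeks without silica replicate 3 or 6 (0.0191 to 0.0329).

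A further 10 V-ATPase genes outside the list were tested, with 4, 2 and 4 called higher and none lower at 3, 6 and 12 weeks. The background called higher was 7.51%, 8.8% and 11.7%. With median scaling 4, 1 and 1 of the 10 were higher. One of them exceeded every listed member: Atp6v0d2, the form of the V0 subunit d found in osteoclasts and macrophages, lay between 7.71 and 8.04 in silica rats, against 6.04 and 6.94 in air rats, at 3 weeks, 7.34 and 8.20 in silica rats, against 5.69 and 6.82 in air rats, at 6 weeks and 7.94 and 8.35 in silica rats, against 6.19 and 7.27 in air rats, at 12 weeks. No silica rat overlapped with an air rat at any week, and the log2 changes of 1.25 ± 0.18, 1.51 ± 0.18 and 1.24 ± 0.18 amount to 2.37-fold, 2.85-fold and 2.36-fold (adjusted p 7.31e-06, 7.76e-08 and 2.29e-06). Its ubiquitous sister form Atp6v0d1 had 0.11 ± 0.048, 0.12 ± 0.048 and 0.078 ± 0.048 and was not called. Atp6v0a1, a form of subunit a, was called at all 3 weeks (0.40 ± 0.086, 0.36 ± 0.086 and 0.23 ± 0.086).

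**Figure D4:**
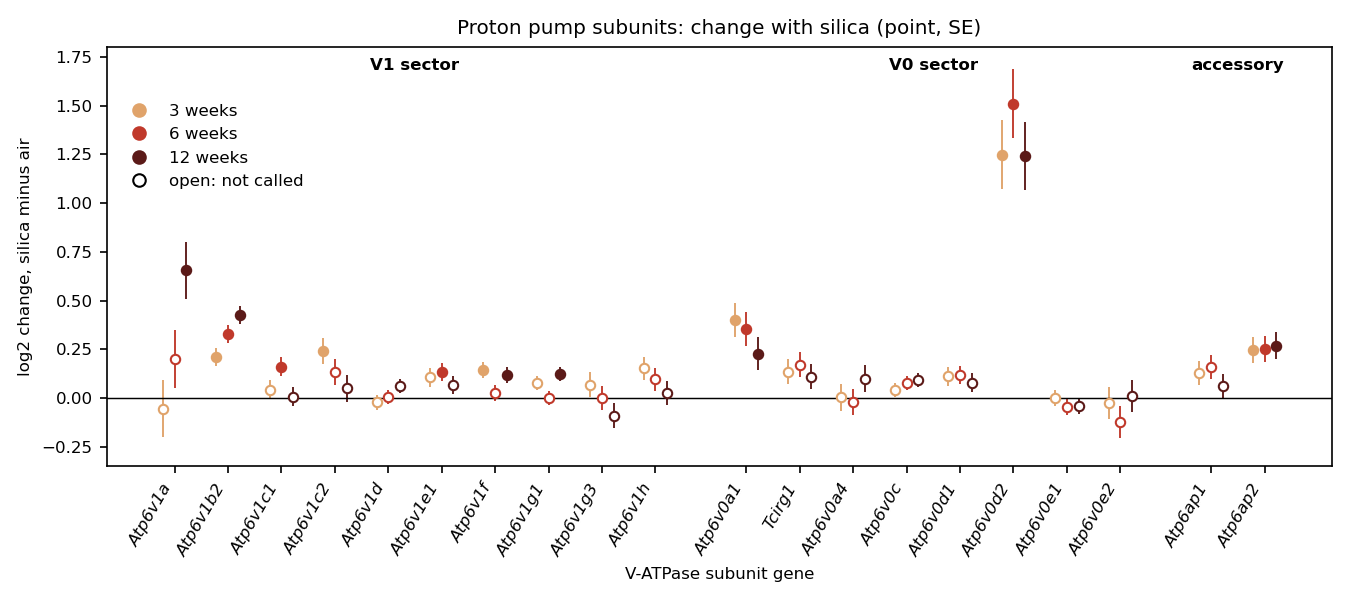
Log2 change, silica minus air, with SE, of the 20 tested V-ATPase genes at 3, 6 and 12 weeks, arranged as V1 sector, V0 sector and accessory proteins; filled points have adjusted p under 0.05. Atp6v0d2 stands at 1.25, 1.51 and 1.24, while most other subunits lie near 0 and the ATP-binding subunits Atp6v1a and Atp6v1b2 have their highest value at 12 weeks.

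Whether the effect of silica on a member changed with the length of exposure was tested as the difference of the effects. In limma 0 of 42 members passed at 12 against 3 weeks, where 2.86% of all tested genes did, and 0 passed at 6 against 3 weeks and at 12 against 6 weeks, against 0.0771% and 0.011% of all tested genes. At an unadjusted p under 0.05 the counts were 8, 1 and 2 of the 42 members, against 22.4%, 8.28% and 12.8% of all tested genes. Nearest to the threshold were Atp6v1a (12 minus 3 weeks, 0.71 ± 0.21, adjusted p 0.0521), Atp6v1b2 (0.22 ± 0.065, adjusted p 0.0565) and Ctss (0.30 ± 0.10, adjusted p 0.0795). Atp6v1a passed when 1 array was left out, namely replicate 1 or 2 of either 3-week group, air replicate 2 at 12 weeks, or silica replicate 1, 4 or 5 at 12 weeks (adjusted p 0.038 to 0.0491). Atp6v1b2 passed without air replicate 1 at 3 weeks or air replicate 5 or silica replicate 4 or 5 at 12 weeks (0.0406 to 0.0499), and Ctss without air replicate 1 at 3 weeks (0.0417). Without air replicate 5 at 3 weeks, or without silica replicate 3 at 12 weeks, 0 members passed. Over all settings the Atp6v1a difference ran from 0.38 to 0.79. The adjusted p in limma ran from 0.038 to 0.133 for Atp6v1a, 0.0342 to 0.669 for Atp6v1b2 and 0.0417 to 0.433 for Ctss.

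Other lysosomal hydrolases were listed as the rest of the pathway, with earlier results of these data known. Of 17 tested genes 5, 8 and 11 were called higher and 1, 0 and 0 lower at 3, 6 and 12 weeks. The background over all tested genes was 7.51%, 8.8% and 11.7% higher and 6.08%, 8.5% and 14.2% lower. The medians of the 17 were 0.055, 0.15 and 0.27. With median scaling 5, 4 and 8 were higher and none lower. Ctsk, cathepsin K, a strong collagenase known from osteoclasts, had the largest change, 0.64 ± 0.19, 0.98 ± 0.19 and 1.02 ± 0.19 on the log2 scale (adjusted p 0.0236, 0.000342 and 0.000148). The peptidase gene Dpp7 was called at all 3 weeks (0.43 ± 0.068, 0.47 ± 0.068 and 0.42 ± 0.068) without overlap between silica and air rats, and the carboxypeptidase gene Prcp at 6 and 12 weeks (0.43 ± 0.087 and 0.57 ± 0.087). Galc, which breaks down galactosylceramide, was called at 6 and 12 weeks (0.30 ± 0.10 and 0.48 ± 0.10), and Pla2g15, the lysosomal phospholipase A2 gene, at 12 weeks (0.80 ± 0.25, adjusted p 0.018) with -0.37 ± 0.25 and 0.30 ± 0.25 before. Aga, the aspartylglucosaminidase gene, was lower at 3 weeks (-0.13 ± 0.041, adjusted p 0.0334).

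Other membrane proteins and transporters of the lysosome had 6, 8 and 8 of 21 tested genes higher and 0, 1 and 2 lower, with medians of 0.072, 0.057 and 0.098, and with median scaling 6, 5 and 6 higher and 0, 0 and 2 lower. The metal transporter gene Slc11a2 (0.32 ± 0.063, 0.57 ± 0.063 and 0.64 ± 0.063) and Sidt2, a lysosomal nucleic acid transporter (0.53 ± 0.063, 0.50 ± 0.063 and 0.37 ± 0.063), were called at all 3 weeks without overlap between the groups. The channel gene Mcoln3, a relative of Mcoln1, was also called at every week (0.41 ± 0.12, 0.67 ± 0.12 and 0.41 ± 0.12). Lamp3, which marks lamellar bodies of type II pneumocytes, changed by 0.40 ± 0.08, 0.45 ± 0.08 and 0.52 ± 0.08. Tpcn1, a cation channel, was lower at 6 and 12 weeks (-0.26 ± 0.072 and -0.39 ± 0.072).

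Of 6 tested genes of the machinery that delivers enzymes to the lysosome, among them the mannose 6-phosphate receptor genes M6pr (0.072 ± 0.041, 0.033 ± 0.041 and 0.034 ± 0.041) and Igf2r (0.051 ± 0.045, 0.025 ± 0.045 and 0.038 ± 0.045), 0 were called at any week in limma, and 0, 0 and 1 had an unadjusted p under 0.05 at 3, 6 and 12 weeks. With so few genes a count of 0 lies near the background of 7.51%, 8.8% and 11.7% called higher. Of 5 cathepsin inhibitors 2, 2 and 3 were higher, and with median scaling 2, 2 and 1. The cystatin B gene Cstb, an inhibitor of cysteine cathepsins (0.30 ± 0.059, 0.28 ± 0.059 and 0.26 ± 0.059), and Serpinb1a, an inhibitor of neutrophil serine proteases (0.43 ± 0.061, 0.44 ± 0.061 and 0.47 ± 0.061), were called at all 3 weeks.

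Transcription factors and regulators of the lysosome had 4, 5 and 2 of 12 tested genes higher and 0, 0 and 1 lower at 3, 6 and 12 weeks. The background was 7.51%, 8.8% and 11.7% higher and 6.08%, 8.5% and 14.2% lower. With so few genes the 12-week counts lie near it. Median scaling gave 3, 2 and 0 higher and none lower. Tfeb itself had 0.061 ± 0.082, -0.0053 ± 0.082 and -0.092 ± 0.082 (adjusted p 0.674, 0.982 and 0.444) on a dim probe, and Tfe3 and Mitf were not analysed here. Tfec, a macrophage member of the family, was called at 3 and 6 weeks (0.31 ± 0.085 and 0.41 ± 0.085) with 0.22 ± 0.085 at 12 weeks (adjusted p 0.0504), and Rragc, a Rag GTPase that recruits mTORC1 to the lysosome, was called at all 3 weeks (0.20 ± 0.042, 0.13 ± 0.042 and 0.22 ± 0.042). Transcript levels say nothing of where these proteins are in the cell, which is how TFEB is known to be controlled.

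Autophagy and lysosome damage genes had 2, 4 and 4 of 13 tested genes higher and 0, 4 and 1 lower at 3, 6 and 12 weeks. The background was 7.51%, 8.8% and 11.7% higher and 6.08%, 8.5% and 14.2% lower. With so few genes the 3-week counts lie near it. The medians of the 13 were -0.020, 0.032 and 0.14. With median scaling 2, 3 and 3 were higher and 0, 0 and 1 lower, and the 3-week median was 0.078. Lgals3, galectin-3, a lectin that gathers on broken lysosomes and is also abundant in macrophages, changed by 0.49 ± 0.10, 0.68 ± 0.10 and 0.56 ± 0.10, and Gpnmb, a glycoprotein of macrophages with stressed lysosomes, by 0.67 ± 0.11, 0.81 ± 0.11 and 0.67 ± 0.11. The cargo receptor gene Sqstm1 was called higher at 12 weeks (0.22 ± 0.05), while the autophagosome gene Gabarapl2 was lower at 6 and 12 weeks (-0.15 ± 0.053 and -0.24 ± 0.053) and Map1lc3b at 6 weeks (-0.13 ± 0.045).

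Cell type markers moved in the same lungs. Their counts stand against 7.51%, 8.8% and 11.7% of all tested genes called higher and 6.08%, 8.5% and 14.2% lower. Of 7 tested alveolar macrophage markers 4, 6 and 5 were called higher at 3, 6 and 12 weeks, with medians of 0.27, 0.53 and 0.67, and none was called lower. Each rat's mean difference from air over these 7 ran from 0.36 to 0.44 in silica rats, against -0.10 to 0.16 in air rats, at 3 weeks. It ran from 0.11 to 0.68 in silica rats, against -0.28 to 0.28 in air rats, at 6 weeks, and from 0.32 to 0.56 in silica rats, against -0.22 to 0.21 in air rats, at 12 weeks. Plet1 (0.60 ± 0.082, 0.74 ± 0.082 and 0.72 ± 0.082), Trem2 (0.67 ± 0.13, 0.87 ± 0.13 and 0.72 ± 0.13) and Gpnmb led them, the mannose receptor gene Mrc1 was called at 6 and 12 weeks, and Fabp4 was not called, with 0.13 ± 0.17, -0.40 ± 0.17 and 0.0087 ± 0.17 (adjusted p 0.649, 0.107 and 0.978). Only these 7 of the 15 listed markers were tested. The probe of Marco was detected on no array, and Cd68, Fabp5, Msr1, Siglec1, Itgax, Krt79 and Cd9 had no named probe.

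Type II pneumocyte markers, 10 tested, were called higher in 4, 7 and 7, with each rat's mean between -0.013 and 0.25 in silica rats against -0.089 and 0.062 in air rats at 3 weeks. These means lay between 0.18 and 0.38 in silica rats against -0.085 and 0.059 in air rats at 6 weeks, and between 0.25 and 0.40 in silica rats against -0.086 and 0.093 in air rats at 12 weeks. Neutrophil markers, 10 tested, were higher in 3, 4 and 4 and lower in 0, 0 and 1, with S100a9 detected on no array, and monocyte and dendritic cell markers, 11 tested, were higher in 4, 3 and 5 and lower in 1 at each week, with 2, 2 and 3 higher and 0, 1 and 1 lower under median scaling. Lower were 5, 6 and 6 of 8 endothelial, 3, 3 and 4 of 8 type I pneumocyte and 2, 6 and 5 of 9 T and NK cell markers, with none of them higher, and with median scaling 0, 2 and 6, 1, 0 and 3, and 0, 3 and 5. B and plasma cell markers had 0, 1 and 0 of 4 lower, and fibroblast markers 1, 0 and 0 of 7. With so few genes these counts lie near the background of 6.08%, 8.5% and 14.2% called lower. The part of these marker shifts in the lysosomal gene changes was not tested. Gpnmb stands in both the macrophage and the lysosome damage list, and Lamp3 and Napsa in both a lysosomal and the type II pneumocyte list.

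**Figure D5:**
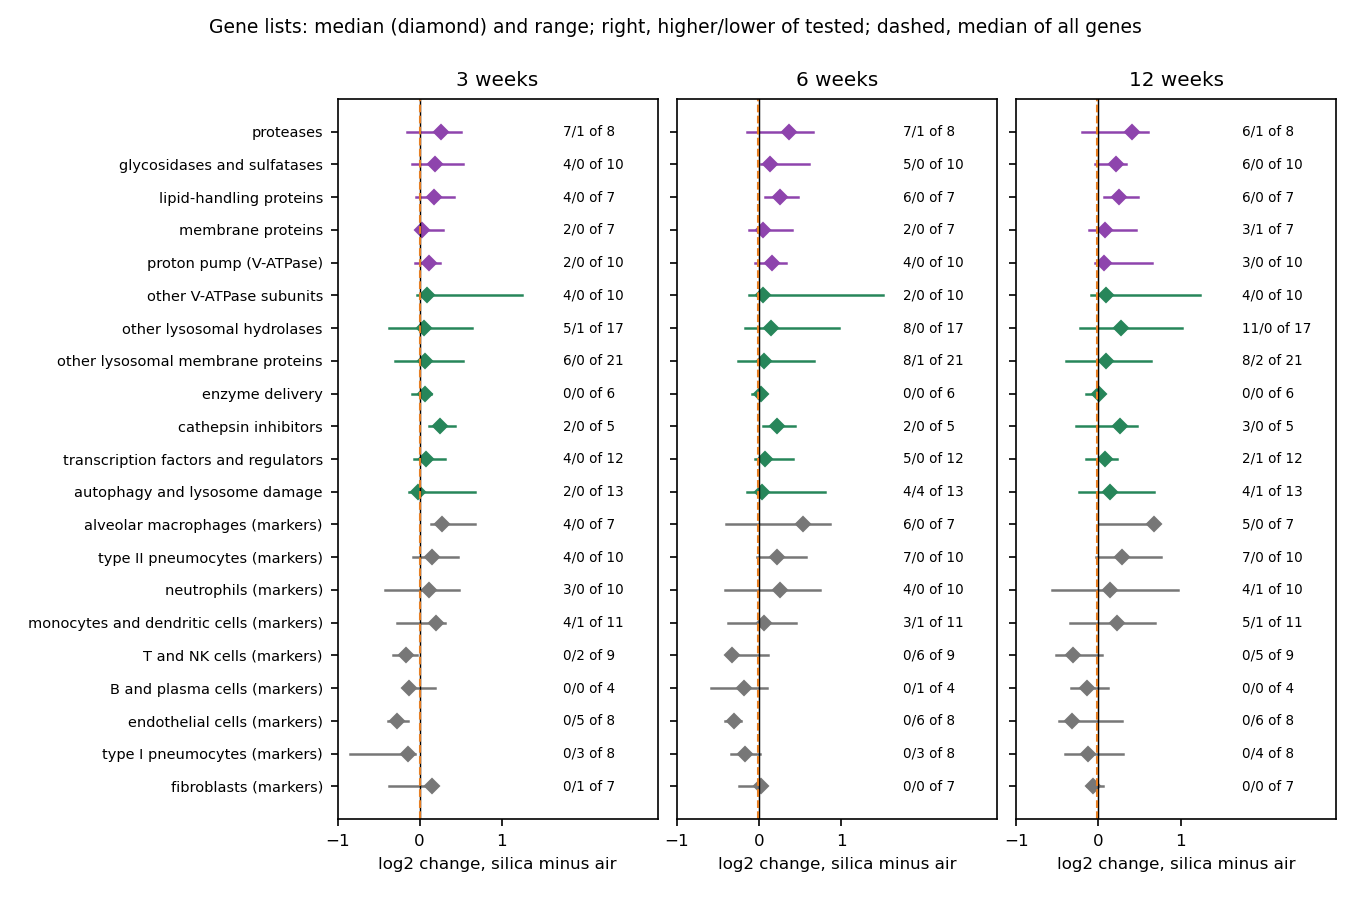
Median (diamond) and range (line) of the log2 change, silica minus air, for the 5 roles of lysosomal genes (purple), the other genes of the pathway (green) and cell type markers (grey) at 3, 6 and 12 weeks; figures on the right are genes called higher and lower of those tested, and the dashed line is the median of all tested genes. Of the lists drawn, proteases and alveolar macrophage markers have the highest medians at 6 and 12 weeks (heart muscle markers, with a 6-week median of 0.59 and 0 calls, are not drawn), and the medians of enzyme delivery genes and membrane proteins lie close to 0.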

How the data were processed

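Lung RNA of 6 groups of 6 rats was hybridised to 36 Illumina arrays, a chip type in which beads carry the probes. Per the file headers, the deposited non-normalised table holds a mean bead intensity for each of 21792 probes on each array, with a detection p-value beside it, and the authors also deposited a table of processed log2 values. BeadStudio, lumi and limma stand in the submitters' processing notes, and the settings behind the authors' log2 values are not given in the sources used here. All per-sample columns matched a sample by name. Mean intensities per array ran from 345 to 519 over all probes, and precision is limited by having 6 arrays in a group.

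The intensities were background-corrected after the neqc method of limma 3.58.1 (R 4.3.3), with the background inferred from the 21204 probes whose detection p-values were multiples of 1 over 825, leaving out 588 that were not (tolerance 0.01 of a step). They were quantile-normalised and transformed to log2 with an offset of 16. Probes with a detection p under 0.05 on at least 6 arrays were kept, the brightest of several probes stood for a gene, and probes were named through the array annotation and the rat RefSeq gene table. A linear model with 6 group means and 30 residual degrees of freedom gave moderated tests, two-sided, with Benjamini-Hochberg adjustment across all tested genes. The code was tested on simulated data.

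The genes named with full values were the 3 members of each role with the largest mean log2 change over the 3 weeks, whichever its sign, and all members called lower. Other genes of the pathway were named where called with the larger changes, and the uncalled ones among them after their values had been seen. The members, the gene lists and the background variant were chosen with earlier results of these data known. The alternatives were median scaling, other background handling, the authors' log2 values, other probe filters, array weights, the arrays of 1 week alone, a replicate block, and leaving out each array. RefSeq promoter windows (GRCr8) were matched by symbol.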

Additional observations from a re-analysis of the deposited data

Results flagged for a closer look

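Within the 6 groups of 6 rats, 288 sets of 6 values (42 genes, the mean over all of them and the means of the 5 roles) were searched for an array whose gap to its nearest neighbour exceeded Dixon's 95% critical value. This met 21 of them, where chance meets about 1 in 20. The arrays that lay between the sets on the first principal component supplied 11 of the 21.

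Silica replicate 3 at 12 weeks was high for Cd63 (log2 level 10.72), Scarb2 (9.86), Mcoln1 (7.60), Atp6v1a (8.63) and the mean difference of the membrane proteins from air (0.32), and low for Grn (11.01) and Atp6v1e1 (10.69). Air replicate 5 at 3 weeks was low for Lgmn (9.83), Tpp1 (11.50) and Grn (10.54) and high for Atp6v1a (7.94).

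The other 10 lay on other arrays. At 3 weeks silica replicate 4 was low for Psap (9.45) and Cd63 (9.76), silica replicate 5 was low for Atp6ap1 (9.21), and air replicate 2 was low for Cd63 (9.55) and for the mean of the membrane proteins (-0.059). At 6 weeks silica replicate 6 was high for Ctsl (12.86), silica replicate 2 was high for Atp6v1e1 (10.89), and air replicate 2 was high for Neu1 (7.46). At 12 weeks air replicate 3 was low for Lgmn (10.01) and air replicate 2 was high for Atp6v1a (7.31).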

How the results depend on the processing

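Counts of members called higher stayed within 1.5 times of the values above under every alternative run except median scaling, which gave 14 at 12 weeks. Median scaling also gave 0, 0 and 1 members lower at 3, 6 and 12 weeks and a 3-week median of 0.26. The authors' log2 values gave a 3-week median of 0.14. Array weights gave 0 members lower at 3 weeks and 2 at 6 weeks, and the arrays of 1 week alone gave 0 lower at 3 weeks and 1 at 12 weeks. The difference between 12 and 3 weeks passed for 1 member, Atp6v1b2, without background correction, with the background from all probes and with the authors' log2 values (adjusted p 0.0491, 0.0424 and 0.0342). The cause of these shifts was not tested.

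With each array left out in turn, the members higher ranged from 17 to 21, 22 to 28 and 22 to 26 at 3, 6 and 12 weeks, the members lower from 0 to 1, 0 to 1 and 1 to 2, the medians from 0.13 to 0.20, 0.18 to 0.21 and 0.21 to 0.24, and the members passing between 12 and 3 weeks from 0 to 3. Of the 126 single calls, counted as member and week, median scaling changed 24, the arrays of 1 week alone 13, array weights 13, the authors' values 4 and no background correction 1. The background from all probes changed 0, and no called direction turned. The lowest probe of a gene, no filter and a stricter filter of 12 arrays also changed 0. Each tested member had 1 named probe and was detected on at least 27 arrays. These probe settings thus kept every member's values and could act only through the other genes.

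Replicate numbers are shared between groups. Same-numbered rats correlated from -0.27 to 0.44 over 18 pairs, with 7 above 0.1. Whether they share more than a number was not tested, since these correlations were set against no other pairs. With the replicate block 19, 24 and 24 members were higher and 1, 1 and 2 lower. The log2 offset limits what can be seen in dim probes, and 5 listed genes have no value.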
